A study of Physalis pubescens with 5 samples.

Results

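Expansins and xyloglucan endotransglucosylase/hydrolases (XTHs) were followed in RNA-seq libraries of floral buds and young fruits of Physalis floridana P106, a nightshade deposited under the organism name Physalis pubescens. Their members were unigenes, the transcripts assembled from the reads, whose deposited protein hit was described as an expansin, a xyloglucan endotransglucosylase or endotransglycosylase, or an endo-xyloglucan transferase. Of 133571 unigenes, these words matched 56 as expansins and 50 as XTHs. The filter on low counts left 38 expansins and 38 XTHs among the 59858 unigenes tested.

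Expansins are wall proteins without known hydrolytic activity that let cellulose and its matrix slide past each other when a cell grows. Plants have alpha-expansins, beta-expansins, which include the group-1 pollen allergens of grasses, and more distant expansin-like proteins. XTHs cut xyloglucan, the hemicellulose that coats cellulose in the walls of nightshades, and join the cut end to another chain or to water, and both families are known from growing and ripening fruit of tomato.

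The buds had been taken before fertilization and the young fruits after it, from plants of 1 cultivar, P106, kept under glass with long days (16 h light, 8 h dark) and no other treatment named. Each organ had 2 libraries, called here fruit 1, fruit 2, bud 1 and bud 2 after their replicate numbers, while the design text speaks of triplicates. Where 4 values follow each other, they are in this order. RNA from mixed organs that served the assembly was not analysed here. Whether the replicates were separate plants is not given in the labels, so a p-value here speaks only of the spread among these samples, and that may be technical. In such bulk samples, fewer cells of a type and less RNA per cell cannot be told apart.

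Library totals were 8240033 to 9002212 counts, 1 count equalled 0.111 to 0.121 CPM (counts in proportion to the library total), and a floor of 3 counts lay at 0.333 to 0.364 CPM, which covers counting error only. Fruit 1 stood apart from the other libraries. Photosynthesis transcripts (117 unigenes) summed to 15577 CPM in it, and to 5735, 6470 and 6566 CPM in fruit 2, bud 1 and bud 2. Pollen and anther transcripts (68 unigenes, of which 17, 5, 3 and 4 were at 0) summed to 968, 7418, 3563 and 4211 CPM. This sum was thus higher in fruit 2 than in either bud library, but its unigenes differed. A pollen-specific extensin-like unigene (Unigene53919_P106) was at 1567 CPM in fruit 2 against 707 and 656 CPM in the buds. Unigenes described as anther-specific went both ways. LAT61 (Unigene7273_P106) was at 66.7 CPM in fruit 2 against 82.1 and 89.9 CPM in the buds, and at 85.9 CPM in fruit 1. A LAT52-like unigene (Unigene54857_P106) was at 277 CPM in fruit 2 against 78.65 and 64.8 CPM in the buds, and at 0.111 CPM in fruit 1. Seed and embryo transcripts (47 unigenes) summed to 245 and 634 CPM in the fruits and 5377 and 5567 CPM in the buds, although seeds form after fertilization. Results are therefore given for each library and also without either fruit library; the part of these marker differences in them was not tested.

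Among the expansins, the family's summed level overlapped between the organs. The unigene with the most counts was the same in both buds and a different one in each fruit. The 56 unigenes summed to 1040, 916, 841 and 924 CPM. The fruit mean was 978 ± 87.3 CPM and the bud mean 882 ± 59.2 CPM (SD, n = 2), a ratio of 1.11, and the organs overlapped. Without the single B14-like unigene described below, the ratio of the sums was 1.01. The sum was spread over many unigenes, since 18 to 20 of them, depending on the library, were needed to reach 90% of the family's counts.

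**Figure D1:**
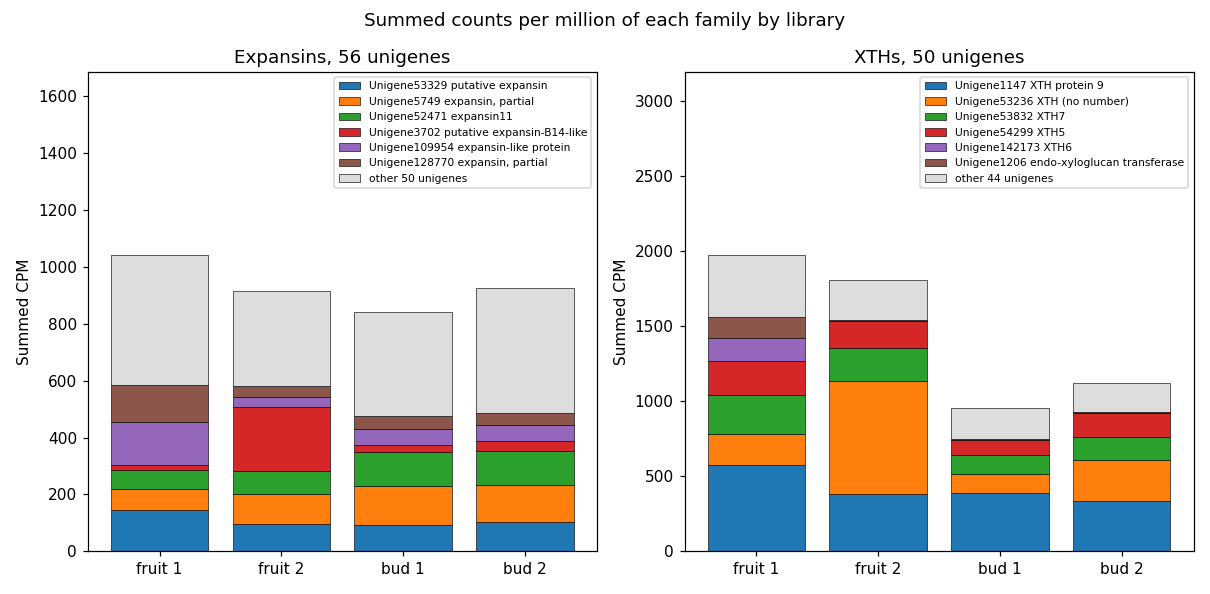
Summed CPM (linear axis) of the 56 expansin and 50 XTH unigenes in each library, with the 6 unigenes of highest mean CPM in colour and the rest in grey. The expansin bars range from 841 to 1040 CPM, whereas both XTH fruit bars, at 1972 and 1806 CPM, stand above both bud bars, at 958 and 1124 CPM.

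Of the 38 expansins tested, the quasi-likelihood test of edgeR, with Benjamini-Hochberg adjustment, called 0 as higher and 0 as lower in fruit, as it did for all unigenes (0.00% higher, 0.00% lower). At an unadjusted p under 0.05, 1 expansin was higher in fruit and 0 were lower, beside 0.510% and 1.11% of all unigenes. DESeq2 called 0 of 42 expansins in either direction, beside 0.0567% of all unigenes higher and 0.232% lower. The median log2 fold change of fruit over bud was 0.22 in the expansins and 0.01 in all tested unigenes, with 21 of 38 expansins above 0. Without fruit 1 the expansin median turned to -0.08, with 16 of 39 above 0, beside -0.05 in all unigenes. With all libraries and counts summed per description, it was 0.49, with 13 of 19 descriptions above 0. Both fruit libraries were below both bud libraries in 10 expansins (26.3%), where the share was 13.6% among all unigenes, and above both in 2 (5.26%), where it was 8.49%. The bud libraries differed from each other by more than 2-fold in 5 of 38 expansins (13.2%) and the fruit libraries in 17 (44.7%), against 16.6% and 30.1% of all unigenes.

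The 2 expansins with the highest levels per unigene length lay lower in both fruits than in both buds, and those next in order did not. A short expansin fragment with a potato hit (Unigene5749_P106, 297 bases), led the expansins in RPKM, the count scaled for both length and depth, at 242, 347, 453 and 442 RPKM. Its mean in fruit was 87.3 ± 22.0 CPM, and in buds 133 ± 2.25 CPM (SD, n = 2; log2 fold change -0.57, SE 0.41, adjusted p of 1 by edgeR with Benjamini-Hochberg adjustment). The fruits lay below the buds without overlap, and the difference did not pass the test. Expansin11 (Unigene52471_P106), named after a tomato expansin, showed the same order at 185, 224, 330 and 321 RPKM. The means were 74.8 ± 10.3 CPM for fruit and 119 ± 2.22 CPM for buds (log2 fold change -0.64, SE 0.36). These neighbours in the order of RPKM did not overlap with each other in buds, at 442 to 453 RPKM and 321 to 330 RPKM. Next in the order came 2 unigenes with pepper hits, both described as putative expansin. The first (Unigene53329_P106) was at 184, 122, 117 and 128 RPKM, with fruit 1 above the rest and fruit 2 between the buds. The second (Unigene53946_P106) was at 59.9, 117, 79.1 and 185 RPKM, so that replicates of each organ differed more than the organs did.

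Alpha-expansins, the class best known for acid-induced wall extension, differed among themselves in fruit 1. Of the 10 tested, 3 were more than 2-fold higher in fruit 1 than in fruit 2, 2 were more than 2-fold lower and 5 were within 2-fold. The 15 unigenes whose description names an alpha-expansin or an A number summed to 240 and 157 CPM in the fruits and 176 and 201 CPM in the buds. Expansin-A1 (Unigene119004_P106) was at 83.1, 27.9, 32.6 and 27.3 CPM, a log2 fold change of 0.86 (SE 0.54). Its fruit 1 value was 2.77 times the bud mean and that of fruit 2 was 0.931 times the bud mean. Expansin A4 (Unigene30877_P106) had 2, 67, 119 and 77 counts, or 0.222, 8.13, 13.8 and 9.19 CPM. It was thus at or under the floor in fruit 1 only. Expansin-A3 (Unigene2118_P106, chosen after its values were seen) had the same pattern at a higher level, at 2.44, 26.1, 48.2 and 44.5 CPM. The other unigene described as expansin A4 (Unigene128522_P106, likewise chosen afterwards) was at 13.6, 14.7, 13.8 and 19.1 CPM and did not share the low value, so unigenes of 1 description differed. The 10 tested alpha-expansins had a median log2 fold change of 0.04, with 5 above 0.

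Beta-expansins held 3 of the 4 widest differences between the fruits. The expansin-B14-like unigene (Unigene3702_P106, 1161 bases, tomato hit) was at 17.9, 225, 24.1 and 37.1 CPM. Fruit 2 stood 7.35 times above the bud mean and fruit 1 below both buds, so the organs overlapped (log2 fold change 2.08, SE 1.26). It made up 24.6% of the expansin counts of fruit 2. It was the only tested expansin at least 4-fold above every other library in fruit 2, where the share of all unigenes was 0.765%. That library also held the highest sum of pollen and anther transcripts, 7418 CPM, and the part of that in the B14-like value was not tested. Without fruit 1, edgeR called it higher in fruit (log2 fold change 2.99, Benjamini-Hochberg adjusted p = 0.000145), and without fruit 2 its log2 fold change was -0.90.

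The expansin-B5-like pair went the other way. The first of them (Unigene137041_P106) had 1, 63, 228 and 130 counts, or 0.111, 7.65, 26.4 and 15.5 CPM. The other (Unigene137123_P106) had 0, 34, 96 and 72 counts, which in fruit 1 was at least 29.6-fold lower than the bud mean, taking 3 counts in that library as the floor. Both fruits were below both buds in each of the pair, with fruit 2 at 7.65 against 20.9 ± 7.67 CPM in buds (SD, n = 2) for the first and 4.13 against 9.85 ± 1.77 CPM for the second. Their fitted log2 fold changes, -2.32 (SE 1.54) and -2.15 (SE 1.56), rest on counts at or near 0 and are no bounds. Of the 38 tested, 4 expansins (10.5%), the B5-like pair, A4 and A3, were at least 4-fold lower in fruit 1 than in every other library, beside 5.50% of all unigenes, and 0 were at least 4-fold higher there, beside 0.558%. The 4-fold patterns of single libraries were chosen after values were seen.

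Expansin-B3-like transcripts lay highest in fruit 1. The longest of the 5 (Unigene82100_P106, 1138 bases) was at 18.1, 6.92, 4.86 and 4.30 CPM. It was higher in both fruits than in both buds, with a log2 fold change of 1.42 (SE 0.51; unadjusted p = 0.042 and adjusted p of 1 by edgeR with Benjamini-Hochberg adjustment), the smallest p of the family. Summed over the 5 unigenes of that description, the level was 62.4, 26.8, 29.0 and 29.0 CPM, so that fruit 2 lay just below the buds. Beta expansin 1 (Unigene91406_P106), with a potato hit, was at 11.8, 1.33, 0.231 (2 counts) and 2.51 CPM. Fruit 1 was high, and the other 3 libraries overlapped.

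Several of the remaining expansins were highest in fruit 1. The expansin-like protein (Unigene109954_P106, 1072 bases), annotated with a reproduction term besides wall modification, was at 149, 35.7, 57.8 and 53.8 CPM, and an expansin fragment with a potato hit (Unigene128770_P106) at 130, 36.0, 45.6 and 42.5 CPM. In both, fruit 1 was the highest library and fruit 2 the lowest. Expansin18 (Unigene127074_P106) had this order too, at 24.9, 6.31, 11.7 and 9.31 CPM. These 3 and expansin-A1 stood beside the photosynthesis transcripts, which were also highest in fruit 1, and the part of one in the other was not tested. At lower levels, 4 unigenes described only as expansin had all fruit values under all bud values. They were Unigene75014_P106 at 4.67, 4.73, 7.98 and 6.45 CPM, Unigene92295_P106 at 1.78, 0.971, 2.78 and 2.15 CPM, Unigene32252_P106 at 1.67, 2.55, 5.55 and 4.06 CPM, and Unigene1872_P106, chosen after its values were seen, at 1.22, 1.09, 1.5 and 3.10 CPM. Unigene95494_P106, also described only as expansin, was at 5.67, 1.09, 6.01 and 3.58 CPM, low in fruit 2.

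**Figure D2:**
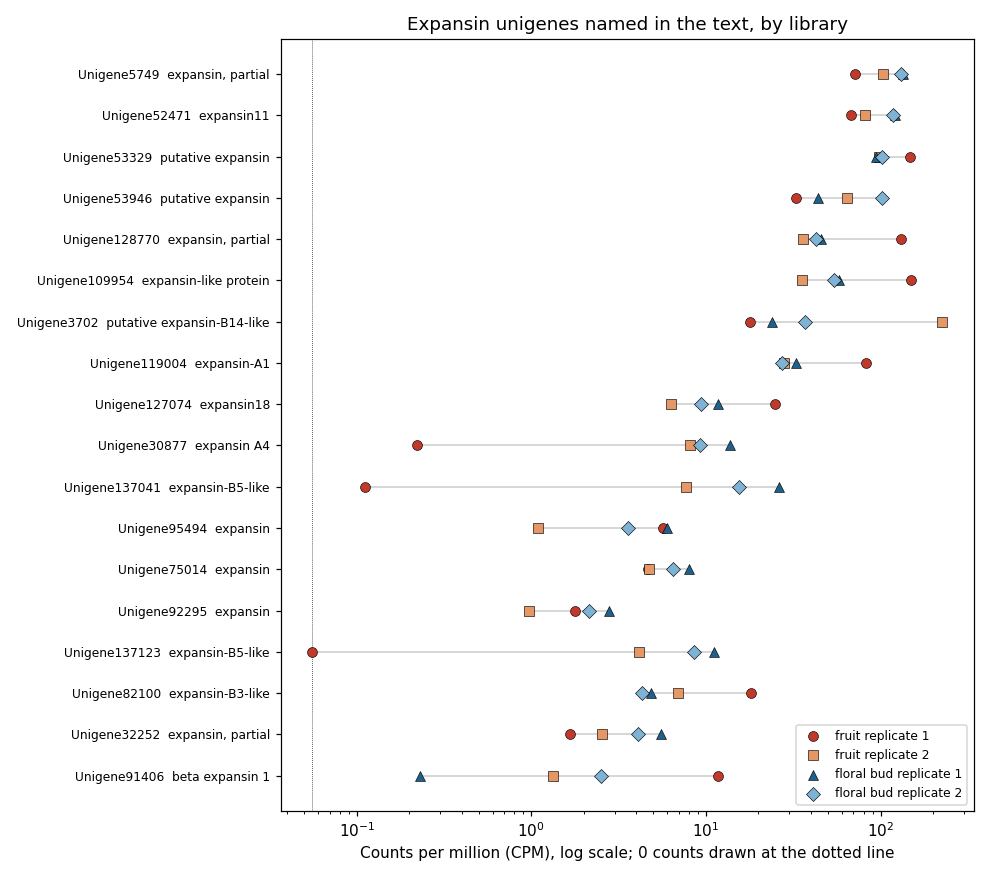
CPM (log axis) of the 18 expansins chosen by rule in each of the 4 libraries, ordered by mean RPKM from the top, with 0 counts drawn at the dotted line. Unigene5749_P106 and Unigene52471_P106 at the top have both fruits left of both buds, the B14-like Unigene3702_P106 has fruit 2 far to the right at 225 CPM, and expansin A4 and the B5-like pair have fruit 1 far to the left.

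The filter removed 18 expansins, of which 12 stayed under 1 CPM in every library. The other untested ones included 5 that reached at least 3 CPM in 1 library, all chosen after their values were seen. In fruit 1 these were 2 further B14-like unigenes, Unigene75302_P106 with 88, 1, 3 and 2 counts and Unigene73785_P106 with 51, 0, 0 and 1, and 2 of the 3 A23-like unigenes, Unigene105001_P106 with 50, 3, 3 and 3 counts and Unigene104904_P106 with 30, 1, 0 and 2. The B14-like description thus held 1 unigene high in fruit 2 and 2 high in fruit 1. An expansin-like B1-like unigene with a strawberry hit (Unigene60484_P106) had 1, 31, 0 and 0 counts.

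Leaving out a fruit library changed which expansins were called. Without fruit 1, edgeR with Benjamini-Hochberg adjustment called 2 of 39 as higher and 0 as lower, beside 1.44% and 0.466% of all unigenes. Without fruit 2 it called 9 of 43 higher, beside 2.29%, and 4 of 43 lower, beside 6.14%. Of the 9, the 4 B14-like and A23-like unigenes high in fruit 1 were not tested with all libraries and entered this fit only through that library, so that their calls were set by the filter, which left 5 higher among the 38 tested with all libraries. Unigene60484_P106 likewise entered the fit without fruit 1 only through fruit 2, which left the B14-like unigene as 1 higher among 38. Both fits assume that the lone fruit library varies like the buds, and they share the bud libraries, so they are set side by side only. The lower calls were the 4 expansins at least 4-fold lower in fruit 1, and the higher ones included expansin-A1, the expansin-like protein, the longest B3-like unigene and beta expansin 1.

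The XTH family, in contrast, summed to more in both fruits than in both buds. Its 50 unigenes reached 1972, 1806, 958 and 1124 CPM. The fruit mean was 1889 ± 118 CPM and the bud mean 1041 ± 118 CPM (SD, n = 2), a ratio of 1.81, or 1.82 with libraries scaled by TMM. No test was made of this sum, which was formed after values were seen. It was concentrated, since 7 to 14 unigenes held 90% of the family's counts, and the 4 of highest mean CPM summed to 1269, 1533, 739 and 922 CPM. The unigenes behind the higher sum differed between the fruits. Without the XTH with no number (Unigene53236_P106) the ratio of the sums was 1.68, and 1.23 between replicates 2 alone; without the XTH6 pair and the endo-xyloglucan transferase it was 1.66; without all 4 it was 1.48.

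Of the 38 XTHs tested, edgeR with Benjamini-Hochberg adjustment called 0 in either direction, with 0 at an unadjusted p under 0.05 either way, and DESeq2 called 0 of 38. The median log2 fold change was 0.57, against 0.01 over all tested unigenes and 0.22 in the expansins. Above 0 were 33 of 38 XTHs (86.8%), where all unigenes had 50.8%. With counts summed per description, the families lay closer, with medians of 0.64 in the XTHs and 0.49 in the expansins, beside 0.02 overall in that fit. Above 0 were then 21 of 23 XTH descriptions (91.3%) and 13 of 19 expansin descriptions (68.4%), beside 51.9%. Without fruit 2, 25 of 43 XTHs (58.1%) were above 0, beside 48.2% of all unigenes, and without fruit 1, 31 of 41 (75.6%), beside 46.2%. Both fruits were above both buds in 7 XTHs (18.4%), beside 8.49% of all unigenes, and below both in 2 (5.26%), beside 13.6%. The fruits differed by more than 2-fold in 26 of 38 XTHs (68.4%) and the buds in 12 (31.6%), larger shares than the 30.1% and 16.6% of all unigenes. Without fruit 1 the median was 0.23, with 1 of 41 called as higher and 0 as lower, and it was 0.56 without fruit 2, with 11 of 43 as higher and 4 as lower by edgeR with Benjamini-Hochberg adjustment. The shares of all unigenes in these fits are those given for the expansins.

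The 4 leading XTHs had higher means in fruit, and none of these differences passed the test. XTH protein 9 (Unigene1147_P106, 1178 bases, tomato hit), the leading XTH, was at 486, 323, 328 and 286 RPKM. Fruit 2 lay between the buds, and the organs overlapped (476 ± 136 CPM against 362 ± 35.0 CPM, SD, n = 2; log2 fold change 0.40, SE 0.40). The XTH with no number (Unigene53236_P106), described as a probable XTH precursor, was at 191, 693, 119 and 251 RPKM. Fruit 2 was the high library, at 3.75 times the bud mean in CPM, while fruit 1 lay between the buds. Without fruit 1, edgeR called it higher (log2 fold change 2.01, Benjamini-Hochberg adjusted p = 0.00724), and without fruit 2 its log2 fold change was -0.09.

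XTH7 (Unigene53832_P106) and XTH5 (Unigene54299_P106), both named after tomato genes, were higher in each fruit than in each bud. XTH7 was at 339, 286, 164 and 202 RPKM, and XTH5, on a unigene of 2274 bases, at 101, 78.2, 42.9 and 69.0 RPKM. The log2 fold changes were 0.77 (SE 0.37) for XTH7 and 0.67 (SE 0.44) for XTH5, each with an adjusted p of 1 by edgeR with Benjamini-Hochberg adjustment. In the order of mean RPKM, XTH protein 9 (356), the XTH with no number (313) and XTH7 (248) overlapped across libraries, while XTH5 (72.7) lay below all libraries of these 3. A second XTH7 unigene (Unigene7719_P106, 368 bases, chosen after its values were seen) was at 23.5, 83.8, 22.0 and 61.0 RPKM, high in both replicates 2.

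**Figure D3:**
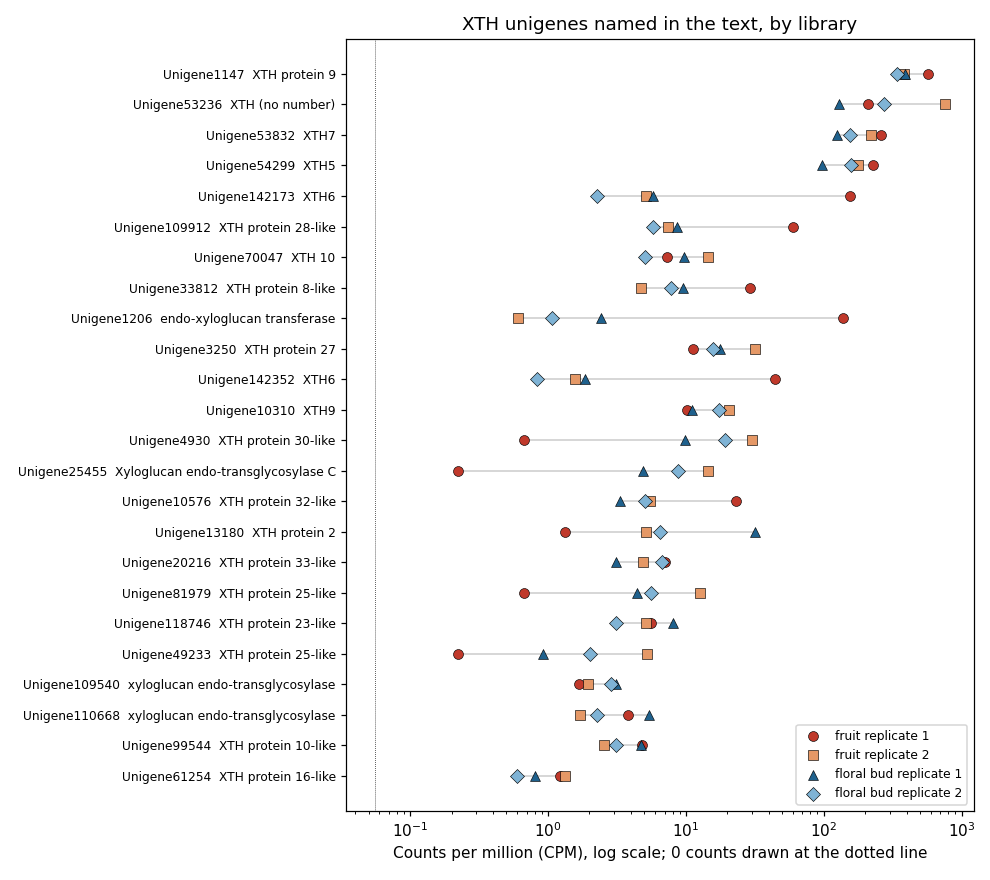
CPM (log axis) of the 24 XTHs chosen by rule in each of the 4 libraries, ordered by mean RPKM from the top. XTH7 and XTH5 have both fruits right of both buds, the XTH6 pair, protein 28-like and the endo-xyloglucan transferase have fruit 1 far to the right, and protein 30-like, the C-terminus protein and the 25-like unigenes drawn have it far to the left.

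A group of XTHs was many times higher in fruit 1 than anywhere else. XTH6 (Unigene142173_P106) had 1384, 42, 50 and 19 counts, which is 154, 5.10, 5.78 and 2.27 CPM. Fruit 1 was 38.2 times the bud mean, and fruit 2 lay between the buds (log2 fold change 4.23, SE 1.63; unadjusted p = 0.0538 and adjusted p of 1 by edgeR with Benjamini-Hochberg adjustment). The second XTH6 unigene (Unigene142352_P106, 471 bases) behaved alike, at 44.5, 1.58, 1.85 and 0.836 CPM, and as the pair shares a description, they may be pieces or copies of 1 gene. The endo-xyloglucan transferase with a tobacco hit (Unigene1206_P106) had 1233, 5, 21 and 9 counts, or 137, 0.607, 2.43 and 1.07 CPM. Its level in fruit 1 was 78.2 times the bud mean, and in fruit 2 it was under that of either bud. Reads covered 99.2% of its length in fruit 1 and 19.2% in fruit 2. It is 1 of 12 XTHs given the term TCH4, an Arabidopsis XTH known to respond to touch and to brassinosteroids.

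Both unigenes of protein 28-like and both of protein 32-like were highest in fruit 1, while the order of the other libraries differed among them. Protein 28-like (Unigene109912_P106 and Unigene110399_P106) summed to 130, 21.2, 21.9 and 18.5 CPM, and protein 32-like (Unigene10576_P106 and Unigene23082_P106) to 49.4, 8.86, 7.06 and 8.84 CPM. In each, fruit 2 was within or next to the range of the buds. The 5 protein 8-like unigenes, led on the RPKM scale by Unigene33812_P106, summed to 77.9, 16.6, 24.6 and 21.4 CPM, again with fruit 1 high and fruit 2 lowest. Of the 38 tested, 6 XTHs (15.8%) were at least 4-fold above every other library in fruit 1, beside 0.558% of all unigenes. These were the XTH6 pair, the endo-xyloglucan transferase, both 28-like unigenes and Unigene23082_P106. Unigene110399_P106 and Unigene23082_P106 were outside the rule for named unigenes and were chosen after their values were seen. Photosynthesis transcripts were highest in the same library at 15577 CPM, and their part in these levels was not tested.

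Other XTHs were close to absent from fruit 1 only. Protein 30-like (Unigene4930_P106) had 6, 250, 85 and 160 counts, or 0.667, 30.3, 9.83 and 19.1 CPM, 21.7-fold lower in fruit 1 than the bud mean and 2.10-fold higher in fruit 2. The protein with an XTH C-terminus (Unigene25455_P106), with a hit in a wild potato, had 2, 119, 42 and 73 counts. Of the 5 protein 25-like unigenes, the 3 tested were likewise lowest in fruit 1 and highest in fruit 2, with 6, 104, 38 and 47 counts for Unigene81979_P106, 2, 43, 8 and 17 for Unigene49233_P106 and 3, 43, 22 and 19 for Unigene39312_P106. The untested 2 did not share this, with 12, 4, 9 and 6 counts for Unigene64309_P106 and 2, 3, 6 and 1 for Unigene39856_P106 (these 2 and Unigene39312_P106 were chosen after their values were seen). In all of the tested ones the fruits lay on opposite sides of the buds, so their log2 fold changes over both fruits, from 0.20 to 0.95, describe neither library. The sum of pollen and anther transcripts was also lowest in fruit 1 and highest in fruit 2 (968, 7418, 3563 and 4211 CPM), and its part was not tested. Not all unigenes in that sum had this order. A pollen-specific C13-like unigene (Unigene53762_P106) was at 495, 368, 336 and 449 CPM, and early tobacco anther 1 (Unigene69839_P106) at 92.0, 97.3, 85.8 and 96.1 CPM. The count at least 4-fold lower in fruit 1 than in every other library was 4 of 38 XTHs (10.5%), beside 5.50% of all unigenes.

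XTH protein 2 (Unigene13180_P106), with a castor bean hit, was lower in both fruits than in both buds, at 1.33, 5.10, 31.5 and 6.45 CPM. Bud 1 was 4.88-fold above bud 2, so the bud mean rests on 1 library (log2 fold change -2.46, SE 1.06, adjusted p of 1 by edgeR with Benjamini-Hochberg adjustment). A precursor of an endo-transglycosylase (Unigene109540_P106) also had both fruits below both buds, at 1.67, 1.94, 3.12 and 2.87 CPM. A second unigene of that description (Unigene110668_P106) was at 3.78, 1.70, 5.44 and 2.27 CPM, with overlap. The other numbered XTHs chosen by rule differed by less. They were XTH9 (Unigene10310_P106) at 10.1, 20.4, 11.1 and 17.4 CPM, XTH 10 (Unigene70047_P106) at 7.33, 14.6, 9.72 and 5.01 CPM, and protein 27 (Unigene3250_P106) at 11.3, 31.8, 17.7 and 15.6 CPM, with overlapping organs in each. Overlap was also seen for protein 10-like (Unigene99544_P106; 4.78, 2.55, 4.74 and 3.10 CPM), protein 23-like (Unigene118746_P106; 5.55, 5.10, 8.10 and 3.10 CPM) and protein 33-like (Unigene20216_P106; 7.11, 4.85, 3.12 and 6.69 CPM). Other unigenes of the first 2 descriptions, chosen after their values were seen, differed. Fruit 1 was highest for protein 10-like Unigene72009_P106 (12.6, 3.03, 3.59 and 2.63 CPM) and 23-like Unigene3823_P106 (4.44, 0.850, 1.27 and 0.358 CPM). Of the untested 23-like ones, Unigene93643_P106 had 13, 0, 5 and 4 counts and Unigene118747_P106 had 4, 16, 8 and 8. Protein 16-like (Unigene61254_P106) was higher in both fruits at a low level, at 1.22, 1.33, 0.810 and 0.597 CPM. The filter left out 12 XTHs, which reached at most 1.94 CPM.

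Fruit was then set against bud within each replicate number, since the replicate 1 files carry other annotation columns than the replicate 2 files, 1 library against 1 and untested. Between replicates 1, 10 expansins (26.3%) and 18 XTHs (47.4%) were at least 2-fold higher in fruit, beside 5.55% of all unigenes, while 5 expansins (13.2%) and 6 XTHs (15.8%) were at least 2-fold lower, beside 13.0%. Between replicates 2, 1 expansin, the B14-like unigene, and 7 XTHs (18.4%) were at least 2-fold higher, beside 5.55%, and 2 expansins (5.26%) and 1 XTH (2.63%) at least 2-fold lower, beside 3.55%. The median log2 change was 0.54 and then -0.26 in the expansins, and 0.74 and then 0.31 in the XTHs.

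The XTH median was thus above 0 in each pair of libraries, and the expansin median in the first only. Of the XTHs, 17 (44.7%) were higher in fruit in both pairs and 4 (10.5%) lower in both, where all unigenes had 23.4% and 26.2%. Of the expansins, 9 (23.7%) were higher and 14 (36.8%) lower in both. The XTH6 unigene Unigene142173_P106 alone was at least 2-fold higher in both pairs, with log2 changes of 4.63 and 1.16, among 0.473% of all unigenes, and 0 of either family were 2-fold or more lower in both, beside 1.84%. Its second change rests on bud 2 at 19 counts, below bud 1 at 50 counts.

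**Figure D4:**
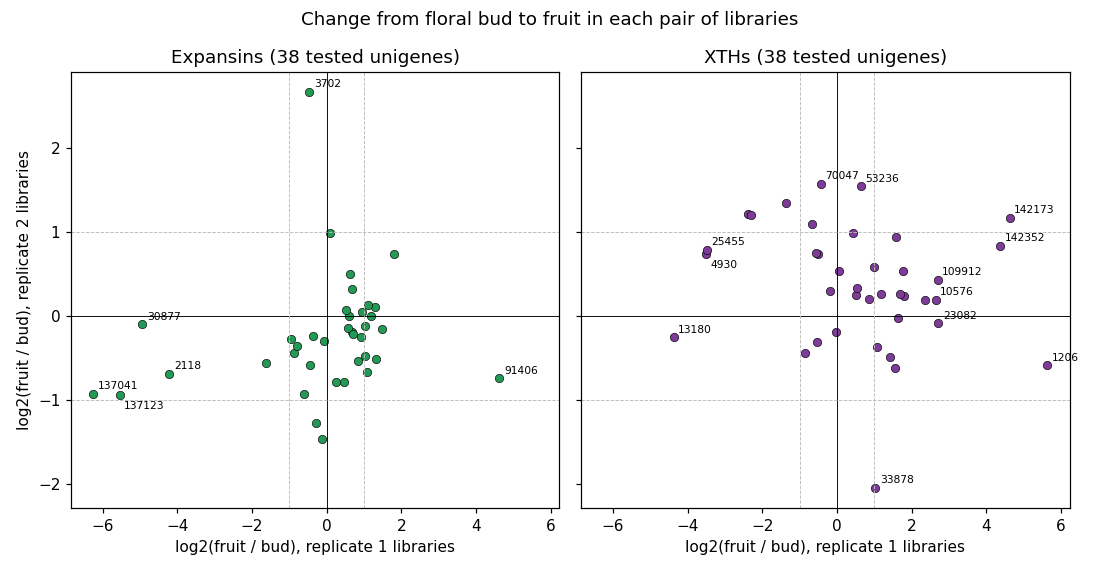
Log2 fold change of fruit over bud (TMM-scaled CPM, prior count of 2) between replicates 1 on the horizontal axis and between replicates 2 on the vertical axis, with 1 point per tested unigene and dashed lines at 2-fold. The axes differ in scale, and points spread more widely along the horizontal axis; the XTH6 unigene at 4.63 and 1.16 lies past 2-fold on both, and the B14-like expansin only on the vertical one. Numbers beside points are those of the unigenes.

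**Figure D5:**
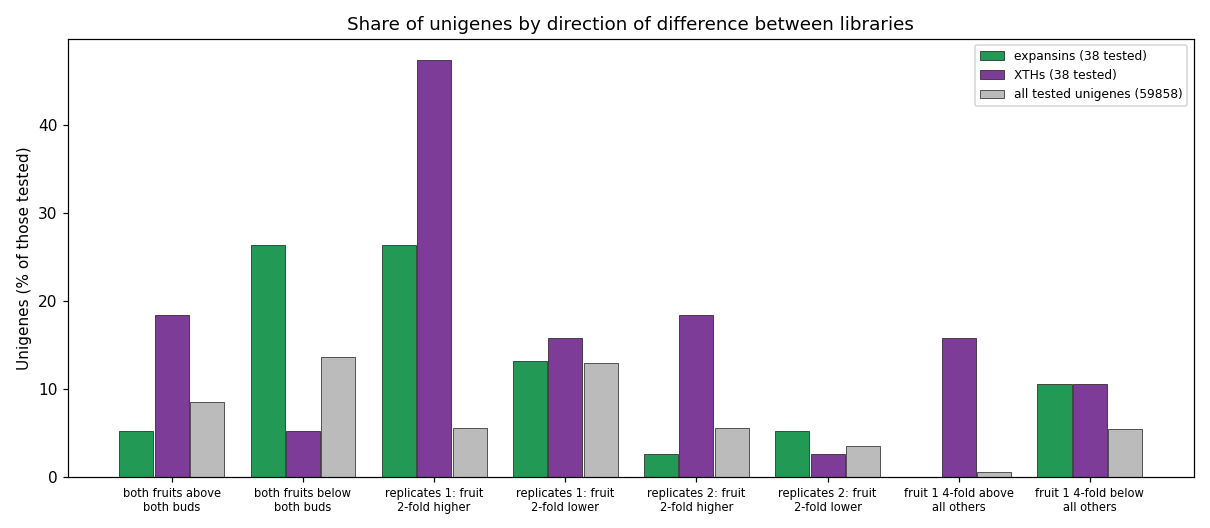
Percentage of tested unigenes that met each description, for 38 expansins, 38 XTHs and all 59858 unigenes; bars start at 0. XTH bars stand above the grey bars where fruit is higher (18.4% against 8.49% for both fruits above both buds), and the expansin bar stands above the grey one for both fruits below both buds (26.3% against 13.6%). Between replicates 1, the expansin bar for fruit at least 2-fold higher also stands above the grey one (26.3% against 5.55%). Both families stand above it for fruit 1 at least 4-fold below all others (10.5% each against 5.50%).

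The families differed in how their descriptions covered the unigenes. The 56 expansins carried 22 descriptions and the 50 XTHs 25, and 47 expansins and 39 XTHs shared their description with another member. Such unigenes may be fragments of 1 transcript, and unique mapping could have split or dropped reads between near-identical copies, so single levels are uncertain. Tomato proteins were the hit of 40 expansins and 42 XTHs. Unigene lengths were 156 to 1324 bases in the expansins (median 471.5) and 185 to 2274 bases in the XTHs (median 558.5). Of the expansins, 23 had a gene ontology term for wall modification and 7 a reproduction term.

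The other genes of xyloglucan and wall loosening showed no direction common to all 5 lists. The 5 lists of descriptions held 300 unigenes, 247 of them tested, with a median log2 fold change of 0.12 and 0 called by edgeR with Benjamini-Hochberg adjustment. At an unadjusted p under 0.05, 6 of 247 were higher and 2 lower, beside 0.510% and 1.11% of all unigenes. The medians were -0.04 for xyloglucan synthesis and other xyloglucan enzymes (57 tested), 0.32 for enzymes that trim hemicellulose (77), 0.16 for endoglucanases (50), -0.08 for cellulose synthases (43) and 0.26 for COBRA-like proteins (23), which guide cellulose deposition. In this order, the shares above 0 were 42.1%, 72.7%, 62.0%, 41.9% and 78.3%, beside 50.8% of all unigenes. The xyloglucan and endoglucanase lists also took in inhibitors of endoglucanases, so they hold more than enzymes, and unigenes could be in both. Of the 6 higher at an unadjusted p under 0.05 by edgeR, 2 were such inhibitors (Unigene35709_P106 and Unigene7112_P106). Like the XTHs, the hemicellulose-trimming enzymes summed to more in both fruits than in both buds, at 7034, 2659, 1809 and 1748 CPM. The sums of the other lists overlapped between the organs. DESeq2 with Benjamini-Hochberg adjustment called 1 of 248 higher and 1 lower, beside 0.0567% and 0.232% of all unigenes. The higher one was a cellulase homolog (Unigene100225_P106) at 11.2, 3.28, 0.578 and 0.478 CPM (DESeq2 adjusted p = 0.0107). The lower one was an endoglucanase-like unigene (Unigene114071_P106) with 1, 5, 42 and 39 counts (DESeq2 adjusted p = 0.0239). In both, fruits and buds did not overlap. Neither was called by edgeR. The median log2 fold change of the lists together was -0.00336 without fruit 1 and 0.11 without fruit 2, beside -0.05 and -0.03 in all unigenes.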

How the data were processed

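Counts were deposited as unique reads on each unigene, per the file headers, and column sums equalled the stated totals. RPKM, per the file headers, corrects the deposited count for length and depth; recomputed RPKM differed from it by at most 1.1e-08 in relative terms. The deposited coverage, per the file headers, is the percent of a unigene's length reached by reads. The assembler, aligner and counter were not given in the sources used here. Files list only unigenes with at least 1 count, so an absent unigene was taken as 0. Strand is not stated, and no sequence was used.

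Descriptions came from the replicate 2 files, else from replicate 1. The members and all lists were chosen with earlier results of these data known. Named unigenes were, per family, those called, the 6 of highest mean RPKM, the 4 of smallest p in each direction, the 4 differing most between the fruits in each direction, those at least 2-fold changed alike within both replicate numbers, and the leading member of any description class still without one. This gave 18 expansins and 24 XTHs; others are marked as chosen later. In sorting classes, EXPA was matched as a word, and "beta expansin" with a space counted as beta. The pattern for cellulose synthase-like protein C also took in CslE and CslG unigenes. Those for xyloglucan and endoglucanases also took in inhibitors of endoglucanases.

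Tests used edgeR 4.0.16 in R 4.3.3 (filterByExpr, TMM factors of 1.08 and 0.918 for fruit replicates 1 and 2 and 1.04 and 0.964 for bud replicates 1 and 2, glmQLFit and glmQLFTest, no covariate, 2 residual degrees of freedom, two-sided, Benjamini-Hochberg over all 59858 unigenes, threshold 0.05). Adjusted p-values given as 1 are rounded. SE is the absolute log2 fold change over the square root of F. CPM values use library totals. Changes within a replicate number used a prior count of 2. DESeq2 1.42.0 on unigenes with at least 10 counts in total was an alternative, with RLE factors, library totals alone, no filter, each library left out, a replicate block, and counts summed per description. The edgeR fit was also tested on simulated counts. No exact permutation test was run, since 2 libraries against 2 reach 0.333 at best, two-sided. Figures were drawn with matplotlib 3.10.9.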

Additional observations from a re-analysis of the deposited data

How the results depend on the processing

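With 2 libraries per organ that differed widely between the fruits, the number of calls depended on which library was left out. Leaving out each library in turn gave 0 to 9 expansins called higher and 0 to 4 lower, and 0 to 11 XTHs higher and 0 to 4 lower, the highest of each without fruit replicate 2. The XTH median log2 change ranged from 0.23 to 0.86 and that of the expansins from -0.08 to 0.51. For the other wall lists the calls ranged from 0 to 26 higher and 0 to 42 lower and the median from -0.00336 to 0.22. The median of these wall lists was 0.00671 with the replicate block, 0.15 with counts summed per description, and 0.048 and 0.078 within replicates 1 and 2. It was 0.12 over all libraries, and DESeq2 called 1 of the lists' unigenes higher and 1 lower. RLE factors, library totals, no filter and the descriptions of replicate 1 first called 0 members of either family.

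Same-numbered libraries deviated together (correlation 0.466), and their files share annotation columns that differ between the numbers. There were only 2 pairs, and no label says what the number marks. With the replicate block edgeR called 0 members, the medians were 0.24 for expansins and 0.50 for XTHs, and the signs of Unigene118746_P106 (0.072), Unigene25455_P106 (-1.08), Unigene4930_P106 (-1.27) and Unigene81979_P106 (-0.44) turned.

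Leaving out 1 library turned the sign of the log2 change in the unigenes that follow, among them the 4 that turned with the replicate block. These fits spanned -1.37 to 6.19 for Unigene1206_P106, -0.66 to 1.05 for Unigene3250_P106, -0.90 to 2.99 for Unigene3702_P106 and -4.54 to 1.17 for Unigene4930_P106. They spanned -0.62 to 0.63 for Unigene10310_P106, -0.23 to 1.02 for Unigene20216_P106, -4.97 to 1.20 for Unigene25455_P106 and -0.74 to 1.66 for Unigene33812_P106. They spanned -2.78 to 1.92 for Unigene49233_P106, -0.0898 to 2.07 for Unigene53236_P106, -1.28 to 0.31 for Unigene53946_P106 and -0.0896 to 1.12 for Unigene70047_P106. They spanned -2.99 to 1.45 for Unigene81979_P106, -1.99 to 0.15 for Unigene95494_P106, -0.49 to 0.19 for Unigene99544_P106 and -0.52 to 1.32 for Unigene109954_P106. They spanned -1.04 to 0.18 for Unigene110668_P106, -0.50 to 0.73 for Unigene118746_P106, -0.61 to 1.15 for Unigene127074_P106 and -0.17 to 1.46 for Unigene128770_P106. The cause was not tested. Depth limits the unigenes under the floor of 3 counts, where a level cannot be told from 0.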
